A study of Homo sapiens with 6 samples.

Results

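The desmosome and plakin genes with KAZN comprised 10 genes, DSP, PPL, EVPL, KAZN, DSG2, DSC2, DSC3, JUP, PKP2 and PKP3. They were followed at 16 of the 22215 probe sets compared, every probe set whose platform gene symbol is one of these names. The genes were picked with the difference between the groups already known, so their values are given as a description. Where the fit over all probe sets placed a member past its threshold, that too is only description, made on the contrast that picked the genes, and no p-value is given for a member. Expression was measured on 6 Affymetrix GeneChip arrays of SUM-159, an established triple negative breast cancer cell line. The SH3GL2 group had 3 arrays, of cells stably transfected with an SH3GL2 insert in the pcDNA 3.1 vector, and the empty vector group had 3 arrays of cells stably carrying that vector alone. SH3GL2 (endophilin A1) is an endocytic adaptor protein studied as a metastasis suppressor, and the comparison asks which transcripts differ when it is introduced. The study's methods speak of stable clones grown under G418 without saying how many stood behind each group. Whether the triplicates were separate cultures is not given either, so p-values measure only the spread between these arrays, which may be technical. In such bulk RNA, fewer cells making a transcript and less transcript per cell cannot be told apart.

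Desmosomes are spot-like junctions that fasten the intermediate filaments of neighboring epithelial cells to each other. Desmosomal cadherins (desmogleins and desmocollins) reach across the gap between the cells, the armadillo proteins plakoglobin and plakophilin hold their tails, and desmoplakin links this plaque to the filaments. Periplakin and envoplakin are related plakins that lie at desmosomes and in the cornified envelope of keratinocytes. Kazrin, the product of KAZN, was identified as a binding partner of periplakin.

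All values are log2 signals as deposited. As a rough guide to the brightness of an absent transcript, 48 genes typical of other organs were used as reference genes. Their 77 probe sets had a median log2 signal of 4.78, called the reference median below, and a 95th percentile of 6.87, called the reference limit. Probe sets differ in brightness, so levels are not compared between genes. The only SH3GL2 probe set read 3.15, 3.33 and 3.29 in SH3GL2 cells and 3.24, 3.18 and 3.25 in empty vector cells, all under the reference median, so it gave no check of the labels. Vimentin (VIM) and N-cadherin (CDH2) lay above the reference limit in both groups. EPCAM, E-cadherin (CDH1), KRT14 and PGR had group means under the reference median. Other epithelial and receptor markers did not. KRT8 averaged 9.65 in SH3GL2 cells and 9.75 in empty vector cells, and KRT18 11.98 and 11.73, above the reference limit. ERBB2 also lay above it at its brighter probe set (8.45 in SH3GL2 cells and 8.5 in empty vector cells). KRT5 lay between the reference median and the limit. ESR1 probe sets lay on both sides of the median, all with means under the limit. Of 38 probe sets of 14 markers of the line's mesenchymal, epithelial and receptor state, 6 were lower in SH3GL2 cells and none was higher, all of them for FN1 or SPARC. None of the 6 passed after signals under the reference median were raised to it, a setting called the floor below (adjusted p = 0.0684 to 0.176). The floor does not alter a probe set whose arrays all lie above that median. These 6 and every called probe set of the related lists below were such, so calls lost there are no sign of dim signal. The log2 signals of all 38 marker probe sets summed to 300.23 to 300.67 in SH3GL2 cells and 303.35 to 303.9 in empty vector cells. The part of this shift in the results below was not tested. For 9 genes of blood, endothelial, fat and gut cells, 0 of 13 probe sets exceeded the reference limit in either group, and their summed signals were 60.37 to 61.15 in SH3GL2 cells and 60.03 to 61.67 in empty vector cells.

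Promoter sequence was examined because DSP and KAZN were higher in SH3GL2 cells while DSG2 hardly differed, and because ZEB and SNAI repressors of epithelial genes are known to bind an E-box. The E-box searched for was CAGGTG. Its reverse complement, CACCTG, was counted as well. RefSeq windows on build GRCh38.p14 were available for 6 of the 10 genes, 11 windows in all, of which the 250 bases before the annotated start were read. The windows of DSP (chr6:7541421-7541670, plus strand) and DSG2 (chr18:31497927-31498176, plus strand) are shown beside that of the outermost of 4 KAZN starts (chr1:14598435-14598684, plus strand), 5′ to 3′, with E-boxes in capitals.
DSP upstream window: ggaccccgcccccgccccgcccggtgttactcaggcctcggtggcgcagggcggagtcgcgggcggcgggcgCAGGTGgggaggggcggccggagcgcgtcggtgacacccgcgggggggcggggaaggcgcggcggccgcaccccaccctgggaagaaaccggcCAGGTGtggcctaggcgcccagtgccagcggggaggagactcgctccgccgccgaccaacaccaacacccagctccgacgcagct
DSG2 upstream window: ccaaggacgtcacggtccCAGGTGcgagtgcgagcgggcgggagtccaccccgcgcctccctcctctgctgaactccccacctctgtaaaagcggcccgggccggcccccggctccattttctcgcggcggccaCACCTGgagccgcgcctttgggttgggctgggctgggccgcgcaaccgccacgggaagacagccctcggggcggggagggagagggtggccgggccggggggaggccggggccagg
KAZN upstream window: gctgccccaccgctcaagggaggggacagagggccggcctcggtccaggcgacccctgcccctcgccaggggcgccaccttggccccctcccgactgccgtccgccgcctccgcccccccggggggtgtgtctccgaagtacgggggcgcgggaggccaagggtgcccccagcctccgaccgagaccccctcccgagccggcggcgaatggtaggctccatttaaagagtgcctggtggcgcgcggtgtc
The DSP window held 2 E-boxes, whose first bases lie 178 and 85 bases before the start, and the DSG2 window also held 2, at 232 and 116 bases. None of the 4 KAZN windows held one, a statement about these letters in these windows only. An E-box was found in 4 of the 11 windows of these genes (1 of 2 for JUP, 1 of 2 for DSC2, and those of DSP and DSG2). Over all 35116 windows of the same length the share was 17.5%. DSP, which was higher in SH3GL2 cells, and DSG2, which was not, carried the same number of E-boxes. Whether any repressor binds these E-boxes or acts on either gene in these cells was not tested. Which KAZN start the array's probe sets report on is not given in the sources used here.

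The genes that stood highest above their empty vector level were KAZN, PPL and DSP, and DSG2, the only desmosomal cadherin among them with a signal above the reference median, showed no such shift. Of the 16 probe sets, 3 were higher and 1 was lower at an adjusted p under 0.05 in limma, and 12 did not pass. Over all 22215 probe sets 4.17% passed, 1.99% higher and 2.18% lower. Because the genes were picked on this contrast, nothing is read from their count. The groups did not overlap at 5 of the 16 probe sets, against 19.4% of all probe sets. The median log2 difference was 0.07 over the 16 and 0.01 over all probe sets.

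**Figure D1:**
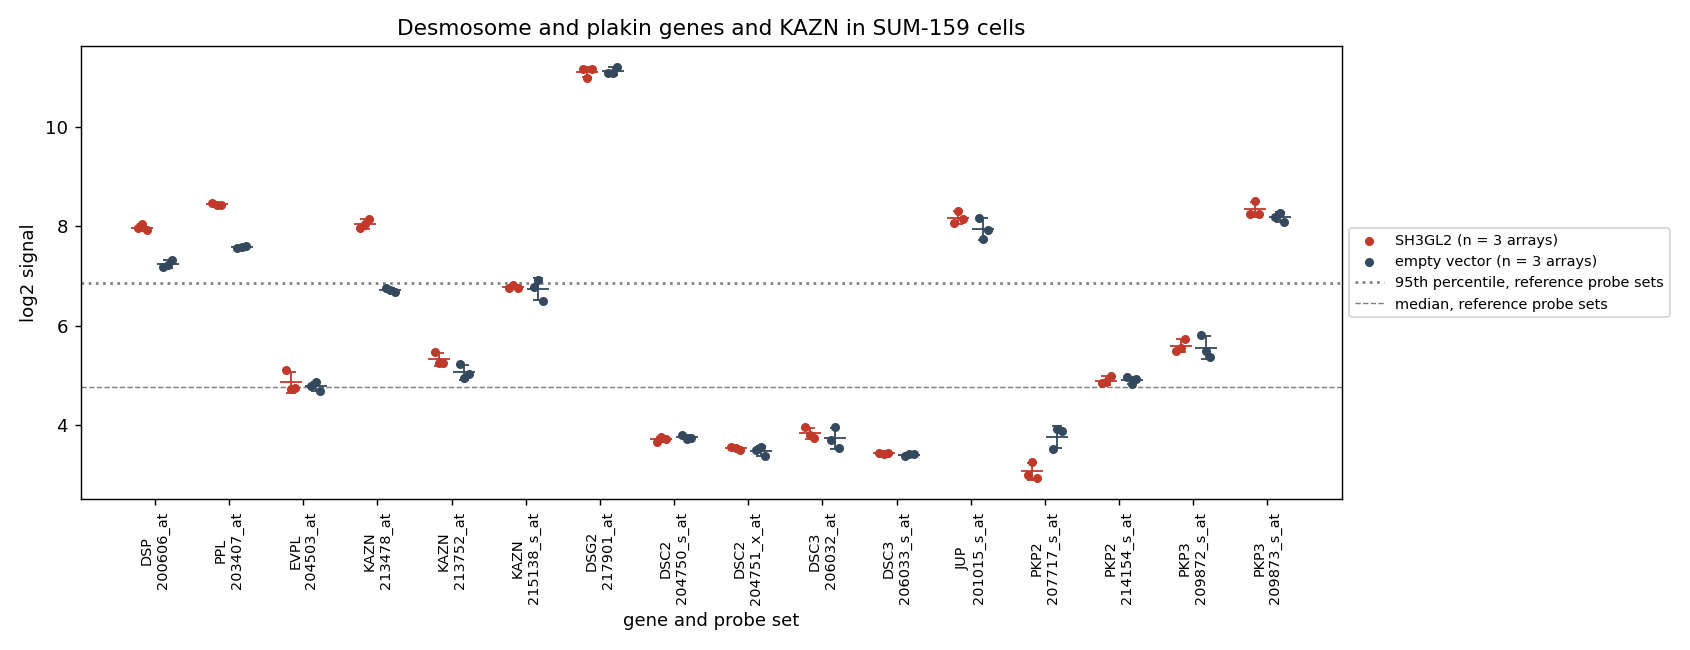
Log2 signal (vertical axis) of the 16 probe sets of the 10 genes in SH3GL2 and empty vector cells, with 1 point per array and bars for mean and SD (n = 3). Dotted and dashed lines mark the reference limit (6.87) and the reference median (4.78). All 3 SH3GL2 arrays lie above the empty vector arrays for DSP, PPL and KAZN at 213478_at.

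Among the plakin genes, DSP and PPL signals were higher in SH3GL2 cells. The EVPL signal lay near the reference median, where a change could not be read. DSP, encoding desmoplakin, the filament anchor of the desmosome, read 7.96, 8.05 and 7.92 in SH3GL2 cells and 7.19, 7.22 and 7.33 in empty vector cells (200606_at). Every SH3GL2 array lay above every empty vector array, with a gap of 0.59 between the nearest arrays. The means were 7.98 ± 0.07 in SH3GL2 cells and 7.25 ± 0.07 in empty vector cells (SD, n = 3 each), a log2 difference of 0.73 (standard error 0.08) or 1.66-fold. PPL, encoding periplakin, read 8.47, 8.43 and 8.44 in SH3GL2 cells and 7.57, 7.59 and 7.61 in empty vector cells (203407_at). Its arrays were the tightest of the 4 probe sets past the threshold, with an SD of 0.02 in each group and a gap of 0.82 between the groups. The log2 difference of PPL was 0.86 (standard error 0.07), or 1.81-fold. EVPL, encoding envoplakin, which forms heterodimers with periplakin, read 5.10, 4.72 and 4.75 in SH3GL2 cells and 4.78, 4.87 and 4.68 in empty vector cells (204503_at). The groups overlapped for EVPL, the log2 difference was 0.08 (standard error 0.12), and both means lay below the reference limit.

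KAZN gave a large difference at 1 of its 3 probe sets. At 213478_at it read 7.96, 8.04 and 8.15 in SH3GL2 cells and 6.77, 6.72 and 6.68 in empty vector cells. The gap between the nearest arrays of the groups was 1.19, the widest among the 16 probe sets. The means were 8.05 ± 0.10 in SH3GL2 cells, above the reference limit, and 6.72 ± 0.05 in empty vector cells (SD, n = 3 each), just under it. The log2 difference was 1.33 (standard error 0.08), or 2.51-fold. At 213752_at KAZN read 5.47, 5.25 and 5.24 in SH3GL2 cells and 5.23, 4.94 and 5.02 in empty vector cells, a log2 difference of 0.26 (standard error 0.11). The groups were parted there by only 0.01. At 215138_s_at the groups overlapped, with 6.77, 6.82 and 6.77 in SH3GL2 cells and 6.79, 6.92 and 6.49 in empty vector cells and a log2 difference of 0.05 (standard error 0.11). Both of these probe sets had means below the reference limit in both groups. Of the 3 only 213478_at passed the threshold, and which transcripts each probe set detects was not examined.

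Among the desmosomal cadherins only DSG2 could be read, and it hardly differed. DSG2, encoding desmoglein 2, the desmoglein of simple epithelia, read 11.17, 11 and 11.17 in SH3GL2 cells and 11.09, 11.09 and 11.22 in empty vector cells (217901_at). The groups overlapped, far above the reference probe sets, and the log2 difference was -0.02 (standard error 0.06). DSC2 and DSC3, encoding desmocollins, had all 4 of their probe sets below the reference median in both groups. The mean of the brighter DSC2 probe set was 3.71 in SH3GL2 cells and 3.75 in empty vector cells (204750_s_at), and that of DSC3 was 3.83 in SH3GL2 cells and 3.73 in empty vector cells (206032_at). The log2 differences of these 4 probe sets ran from -0.04 to 0.10. At such signals a change of either desmocollin could not be read from the arrays.

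The armadillo proteins of the plaque gave mixed and mostly small differences. JUP, encoding plakoglobin, which binds cadherin tails in desmosomes and adherens junctions alike, read 8.07, 8.32 and 8.15 in SH3GL2 cells and 8.18, 7.74 and 7.92 in empty vector cells (201015_s_at). The highest empty vector array lay within the SH3GL2 range, and the log2 difference was 0.23 (standard error 0.11). PKP3, encoding plakophilin 3, read 8.26, 8.52 and 8.25 in SH3GL2 cells and 8.19, 8.28 and 8.09 in empty vector cells at its brighter probe set (209873_s_at). The groups overlapped, with a log2 difference of 0.16 (standard error 0.09), and the dimmer PKP3 probe set gave 0.04. PKP2, encoding plakophilin 2, read 3.00, 3.26 and 2.94 in SH3GL2 cells and 3.51, 3.91 and 3.88 in empty vector cells at 207717_s_at. It was the only probe set of the 16 lower at the threshold, with a log2 difference of -0.70 (standard error 0.12), or 1.62-fold lower. All 6 arrays lay under the reference median there, and the difference was -0.28 with 16 added to the signal before the logarithm and 0 under the floor. The other PKP2 probe set, 214154_s_at, read 4.84, 4.86 and 4.99 in SH3GL2 cells and 4.96, 4.82 and 4.93 in empty vector cells, a log2 difference of -0.01.

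**Figure D2:**
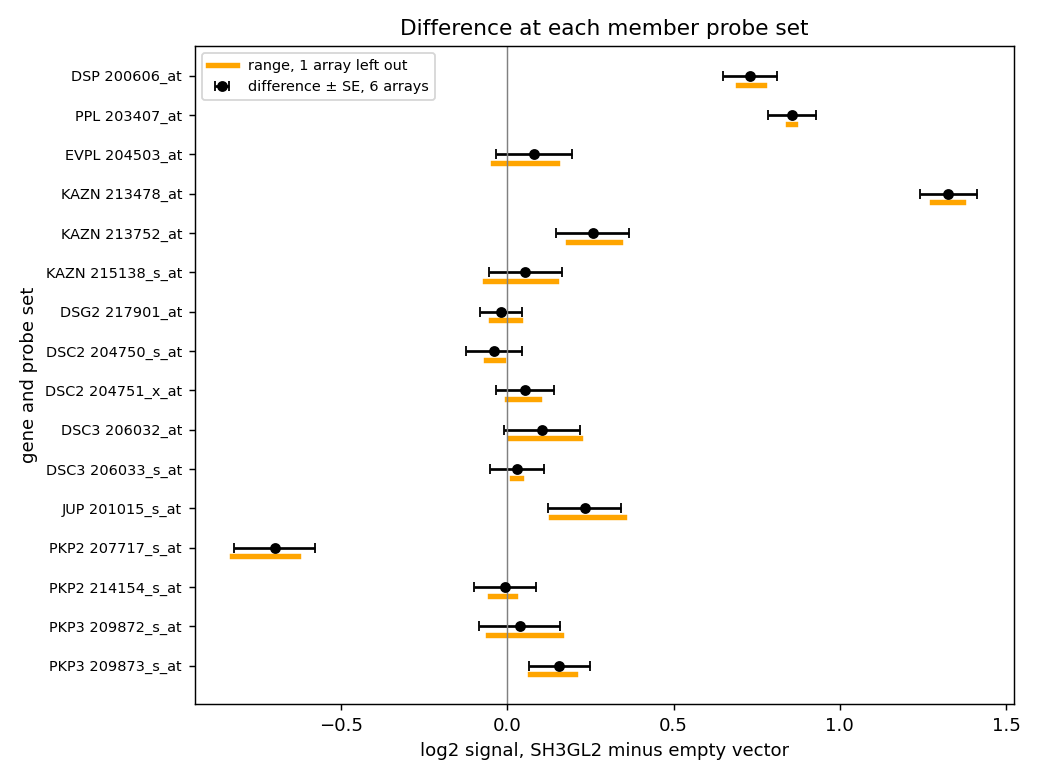
Difference in log2 signal, SH3GL2 minus empty vector, at the 16 probe sets (points, with standard error from limma over 6 arrays), and the range of the difference when 1 array is left out (orange bars). The bars run from 0.69 to 0.77 for DSP, 0.85 to 0.87 for PPL, 1.28 to 1.37 for KAZN at 213478_at and -0.83 to -0.63 for PKP2 at 207717_s_at. As the genes were picked on this contrast, these ranges are no sign of stability.

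Across the 16 probe sets, 12 differences were positive and 4 negative, and the 12 that did not pass ran from -0.04 to 0.26. Standard errors ran from 0.06 to 0.12. In 5 of the 16 both group means lay below the reference median, and in 5 both lay above the reference limit (DSP, PPL, DSG2, JUP and the brighter PKP3 probe set). Of the 4 past the threshold, DSP and PPL had both means above the reference limit, KAZN only that of SH3GL2 cells and PKP2 neither.

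Of the further desmosome genes, none passed the test. These 7 genes were measured at 12 probe sets, with 0 past the threshold in limma and 1 at an unadjusted p under 0.05, a PKP4 probe set. Over all 22215 probe sets, 3524 had an unadjusted p under 0.05. DSG3, the desmoglein of basal and lower epidermal layers, averaged 5.90 ± 0.03 in SH3GL2 cells and 5.98 ± 0.31 in empty vector cells (SD, n = 3 each), below the reference limit. DSG1 and DSC1, the cadherins of upper epidermis, had means of 3.43 and 3.39 in SH3GL2 cells and 3.51 and 3.26 in empty vector cells, below the reference median. PERP, a membrane protein needed for stable desmosomes in mice, gave a log2 difference of 0.08 (adjusted p = 0.754). PKP4, a plakophilin relative, gave 0.09 at its brightest probe set (adjusted p = 0.597). At 201927_s_at, the one with the unadjusted p under 0.05, PKP4 gave -0.25 and the groups did not overlap (adjusted p = 0.156). The median log2 difference of these 12 probe sets was -0.06.

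Hemidesmosomes fasten the same filaments to the basement membrane, through the α6β4 integrin and the plakins plectin and dystonin. Here the integrin and laminin genes were higher and the plakin genes did not pass. Of 23 probe sets for 7 genes, 4 rose, 0 fell and 19 did not pass limma, with the calls in 3 genes. The share was 17.4% against 4.17% of all probe sets, and the median log2 difference was -0.04. Like the other related lists, this one was chosen with earlier results of these data known, so nothing is read from its share. ITGB4, encoding integrin β4, which binds plectin, read 7.98, 8.06 and 7.98 in SH3GL2 cells and 7.22, 7.26 and 7.42 in empty vector cells (204990_s_at). The groups were well apart, with a log2 difference of 0.71 (standard error 0.08, adjusted p = 2.71e-04 from limma). Its other 3 probe sets, with means of 4.82 to 6.03, gave -0.06 to 0.08 and did not pass. ITGA6, encoding integrin α6, rose at both of its probe sets, by 0.48 (adjusted p = 6.91e-04) and 0.42 (adjusted p = 0.0126). The call of the second, 215177_s_at, was lost under the floor (adjusted p = 0.133), without SH3GL2 replicate 1 (0.0543) and without empty vector replicate 1 (0.0533). LAMB3, the β3 chain of laminin-332, to which that integrin binds, read 7.69, 7.89 and 8.03 in SH3GL2 cells and 7.17, 7.22 and 7.06 in empty vector cells. Its log2 difference was 0.72 (standard error 0.10, adjusted p = 7.79e-04), and under the floor it no longer passed (adjusted p = 0.0680). PLEC, encoding plectin, gave -0.04 at its brighter probe set (8.21 in SH3GL2 cells and 8.25 in empty vector cells, adjusted p = 0.863). DST, encoding dystonin, did not pass at any of 8 probe sets (log2 differences -0.27 to 0.24), nor did MACF1 at 5 (-0.15 to 0.01) or CD151 at 1 (-0.04). The DST probe sets 212253_x_at, 212254_s_at, 215016_x_at and 215810_x_at were lower at unadjusted p = 0.0135 to 0.0401 from limma. The last of them lay under the reference median. In the whole list 8 of 23 probe sets had an unadjusted p under 0.05, against 3524 of all 22215.

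**Figure D3:**
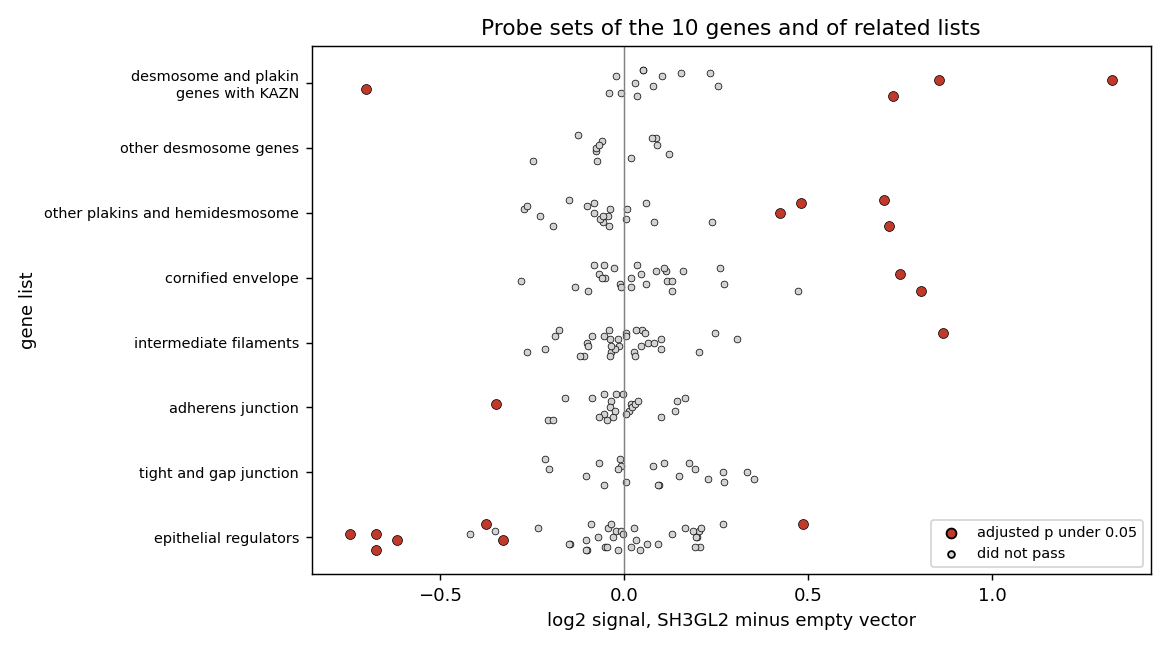
Difference in log2 signal, SH3GL2 minus empty vector (horizontal axis), for every probe set of the 10 genes and of 7 related lists (rows), with red points for an adjusted p under 0.05. The vertical position within a row only separates the points. KAZN at 1.33 lies furthest right, and the hemidesmosome row holds 4 red points between 0.42 and 0.72.

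Envoplakin, periplakin and desmoplakin are also built into the cornified envelope, the protein shell of the outermost keratinocytes. Of 28 probe sets for 23 genes of that envelope, 2 rose and none fell (7.14%, median log2 difference 0.04), and 2 exceeded the reference limit in a group mean. CSTA, encoding the protease inhibitor cystatin A, read 9.10, 8.84 and 9.22 in SH3GL2 cells and 8.38, 8.09 and 8.44 in empty vector cells, a log2 difference of 0.75 (adjusted p = 0.00138). PI3, encoding elafin, an elastase inhibitor crosslinked into the envelope, read 6.40, 6.94 and 6.55 in SH3GL2 cells and 5.81, 5.81 and 5.85 in empty vector cells, a log2 difference of 0.81 (adjusted p = 0.00207). Both means lay below the reference limit, and the other PI3 probe set, 41469_at, gave 0.47 and did not pass (adjusted p = 0.0779). Neither gene passed under the floor (adjusted p = 0.111 for CSTA and 0.107 for PI3).

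The list of intermediate filament genes had 1 of 34 probe sets past the threshold (2.94%, 26 genes, median log2 difference -0.015). It held keratins and vimentin and also nuclear lamins, so its share is not that of desmosome-linked filaments alone. KRT75, a keratin of the hair follicle, read 9.96, 10.48 and 10.12 in SH3GL2 cells and 9.25, 9.43 and 9.28 in empty vector cells, a log2 difference of 0.87 (adjusted p = 4.16e-04, and 0.0937 with the floor). Vimentin gave -0.11 (adjusted p = 0.103), and the simple keratins KRT8 and KRT18 gave -0.10 (adjusted p = 0.634) and 0.25 (adjusted p = 0.115).

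In the neighboring junctions few genes passed. Of 25 adherens junction probe sets (13 genes), 1 fell and none rose (4%, median log2 difference -0.02). It was NECTIN3, an immunoglobulin-like adhesion molecule, with 8.41, 8.40 and 8.52 in SH3GL2 cells and 8.61, 8.83 and 8.93 in empty vector cells and a log2 difference of -0.35 (adjusted p = 0.0455). The NECTIN3 call was lost in 5 of 6 fits that left out an array (adjusted p = 0.0960 to 0.170, the exception being empty vector replicate 1), after median centring (0.0521), under the floor (0.212) and without the trend term (0.0982). Of 21 tight and gap junction probe sets (15 genes), 0 passed limma, and the median log2 difference was 0.09. An unadjusted p under 0.05 was found at 8 of them, against 3524 of all 22215 probe sets. Of these 8, the TJP1 probe sets 202011_at and 214168_s_at were lower in SH3GL2 cells (-0.20 and -0.21) and the others higher.

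Most of the calls among genes that regulate epithelial junctions were decreases. Of 43 probe sets for 18 such genes, 1 rose, 6 fell and 36 did not pass (16.3% called, median log2 difference -0.03). The calls came from 5 genes, and nothing is read from the share, as the list was chosen with earlier results known. All arrays of the called probe sets lay above the reference median, so the floor did not alter their values. ZEB1, a repressor of epithelial genes, fell at all 3 of its probe sets, with 8.84, 8.49 and 8.75 in SH3GL2 cells and 9.41, 9.46 and 9.44 in empty vector cells at the one with the smallest adjusted p (log2 difference -0.74, adjusted p = 2.35e-04, and 0.0532 with the floor, where the other 2 probe sets were at 0.112 and 0.124). TWIST1, a transcription factor of the mesenchymal state, read 7.22, 7.48 and 7.37 in SH3GL2 cells and 7.98, 8.04 and 8.07 in empty vector cells, a log2 difference of -0.67 (adjusted p = 5.27e-04). SNAI2, encoding the repressor Slug, had means of 10.14 ± 0.08 in SH3GL2 cells and 10.51 ± 0.08 in empty vector cells (SD, n = 3 each), a log2 difference of -0.37 (adjusted p = 0.00555, and 0.0842 with the floor). TFAP2A fell by 0.33 on the log2 scale at 1 of 3 probe sets (adjusted p = 0.0228). That call was lost in 5 of 6 fits that left out an array (adjusted p = 0.0516 to 0.0907, the exception being SH3GL2 replicate 3), without the trend term (0.0766) and under the floor (0.140). KLF5, a transcription factor of basal epithelium, rose at 1 of 2 probe sets, with 9.30, 9.24 and 9.56 in SH3GL2 cells and 8.81, 8.84 and 8.99 in empty vector cells, a log2 difference of 0.49 (adjusted p = 0.00719, and 0.138 with the floor).

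**Figure D4:**
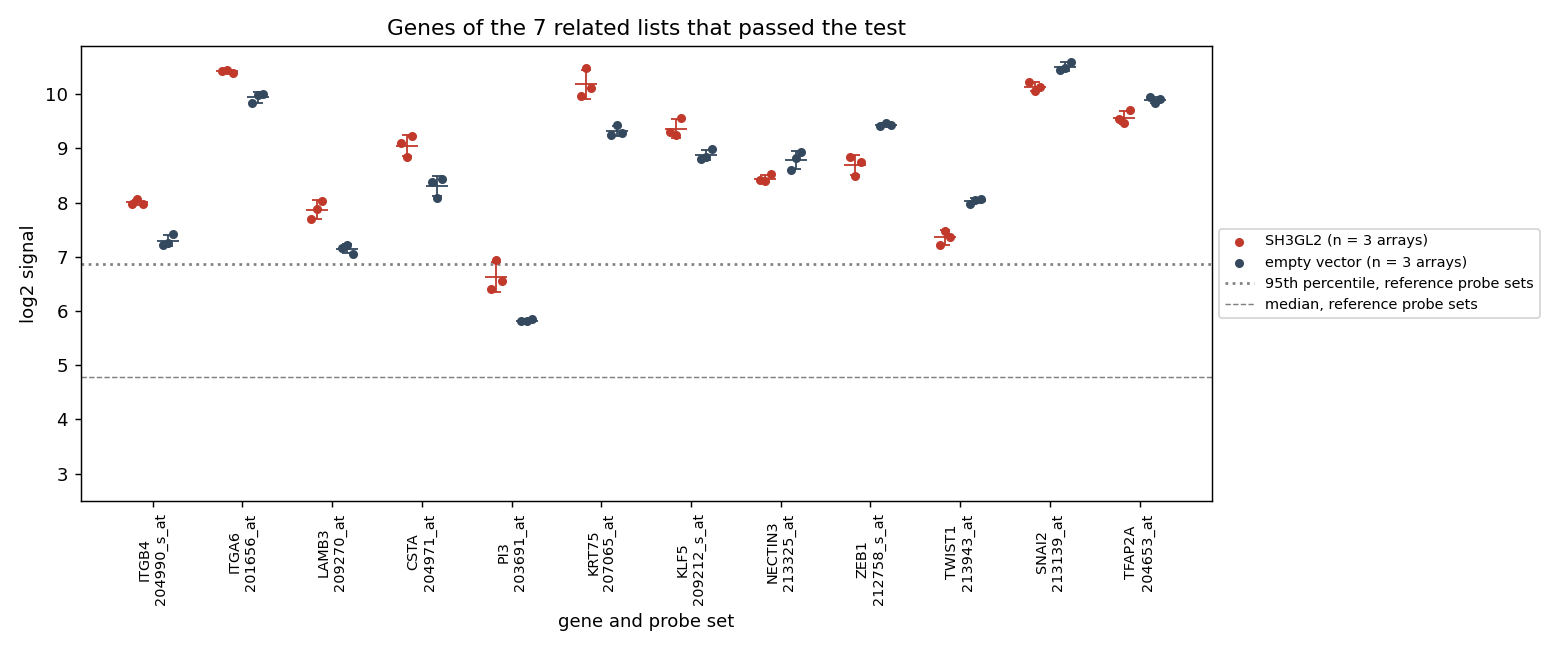
Log2 signal (vertical axis) of the 12 genes of the 7 related lists that passed limma, each at its probe set with the smallest adjusted p, with 1 point per array and bars for mean and SD (n = 3). Dotted and dashed lines mark the reference limit and the reference median. The 7 genes from ITGB4 to KLF5 are higher in all SH3GL2 arrays, and the 5 from NECTIN3 to TFAP2A are lower.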

How the data were processed

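Total RNA of SUM-159 cells was hybridized to 6 Affymetrix GeneChip arrays. The authors deposited log2 values per probe set. They scanned the arrays with GCOS software, and the submitters' notes name MAS5. The scaling between arrays, whose medians ran from 6.97 to 7.02, is not given in the sources used here. The log2 scale was read from the values, which ran from 2.82 to 15.31.

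Of 22277 probe sets, 62 controls were left out. Groups, taken from the labels, entered a two-sided moderated fit (limma 3.58.1 under R 4.3.3, lmFit then eBayes with trend) with Benjamini-Hochberg adjustment over 22215 probe sets, at a threshold of 0.05. The fit was tested on simulated data. Standard errors are those of limma. With 3 arrays per group an exact permutation test cannot go below 0.1, and the number of arrays limits the precision. Platform annotation gave 1 symbol to 19064 probe sets, several to 1043 and none to 2108. The lists outside the 10 genes used probe sets with 1 symbol.

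Members and lists were chosen with earlier results of these data known. Named genes were all members, up to 4 genes a direction in each list by the smallest adjusted p under 0.05, and close relatives of the members. VIM, KRT5, KRT8, KRT14, KRT18, CDH2, EPCAM, CDH1, PGR, ERBB2, ESR1, FN1, SPARC, PERP, MACF1, CD151 and TJP1 were named outside that rule as markers or list members. Alternatives were quantile normalization, centring arrays on their medians, adding 16 before the logarithm, a floor at the reference median, restriction to brighter probe sets, no trend term, a robust prior, a block for replicate number and omission of each array. Motifs were searched in RefSeq windows. Plots used matplotlib 3.10.9 (Python 3.11.15).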

Additional observations from a re-analysis of the deposited data

How the results depend on the processing

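The 4 of 16 desmosome and plakin probe sets past the threshold were the same 4 under quantile normalization, median centring, 16 added before the logarithm, no intensity trend, a robust prior, a replicate block and without any 1 array. With the floor and among brighter probe sets PKP2 was no longer among them, and 3 passed. As the members were chosen on this contrast, these counts are no sign of stability. With 16 added the log2 difference was 0.81 for PPL and 1.21 for KAZN at 213478_at. The floor left 291 calls over all probe sets against 926. It left 2 of 4 for the hemidesmosome list, 0 of 2 for the cornified envelope and 0 of 1 for intermediate filaments. For adherens junctions it left 0 of 1, for tight and gap junctions 1 against 0 and for the regulators 1 of 7. Values above the reference median are not altered by the floor. Calls lost there came from the variance estimates and adjustment shared over all probe sets, and the part of each was not tested. Under the floor the log2 differences of LAMB3 (0.72), CSTA (0.75), PI3 at 203691_at (0.81) and KRT75 (0.87) were unchanged though their calls were lost. Without an intensity trend there were 597 calls over all probe sets and 0 for adherens junctions, as with median centring (0). Among brighter probe sets the cornified envelope had 1 call and intermediate filaments 2. Leaving out 1 array gave 480 calls (without SH3GL2 replicate 3) to 801 over all probe sets, with 518 without empty vector replicate 2. It gave 1 to 2 for intermediate filaments (2 without SH3GL2 replicate 1), 0 to 1 for adherens junctions, 3 to 4 for the hemidesmosome list and 6 to 9 for the regulators. Residual correlations of same-numbered arrays were -0.01 for replicate 1, 0.13 for replicate 2 and 0.15 for replicate 3. Those of other pairs were -0.16 to 0.02, and 4 of 6 arrays correlated best with their own number. Residuals are centred within each group of 3 arrays, so these values depend on one another. They show a difference between replicates 2 and 3 that ran the same way in both groups, and are not separate signs for each replicate. What the numbers mark is not given, so the main fit had no block. The replicate block gave 1079 calls over all probe sets, 4 for the members and 10 for the regulators. Of the called probe sets in the members, the 7 related lists and the line markers, none changed sign under these alternatives, and PKP2 at 207717_s_at went to 0 under the floor. Signals near or under the reference median restrict what can be read of DSC2, DSC3, EVPL and PKP2. For KAZN, 213752_at and 215138_s_at lay below the reference limit in both groups. The empty vector mean of KAZN at 213478_at (6.72) lay below it too.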
